A study of Mus musculus with 20 samples.

Results

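The comparison described here is the effect of GSK343, an inhibitor of the histone methyltransferase EZH2, in tumors that also received an antibody against the chemokine CXCL10. All 10 libraries carry the Ant-CXCL10 Antibody label, as the submitters spell it: 5 with that antibody alone (anti-CXCL10) and 5 with the antibody and GSK343 (anti-CXCL10 plus GSK343). They were chosen by these labels from the 19 libraries with a column in the table. Tumors of HEPA1-6, a mouse hepatoma line, were grown under the skin of C57/BL6 mice for 4 weeks, and poly-A RNA was sequenced. Neither group is free of the antibody, so the comparison holds the antibody constant and varies the inhibitor. Of 14633 genes in the table, 13692 had at least 1 FPKM (fragments normalized to gene length and library size) in at least 5 of the 10 libraries and were tested, and 941 were not. No dose, schedule, age or sex is given in the labels, nor whether each tumor is from its own animal. P-values therefore measure the spread between these libraries, part of which may be technical.

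EZH2 is the catalytic subunit of Polycomb repressive complex 2 (PRC2), which places the repressive mark H3K27me3 on chromatin. Inhibitors of it block the enzyme rather than its transcript, so the mRNA of Ezh2 does not report on inhibition. CXCL10, with CXCL9 and CXCL11, is secreted by cells exposed to interferon-gamma and draws T cells and natural killer (NK) cells that carry the receptor CXCR3. An antibody against CXCL10 acts on the protein and need not alter its transcript. The design pairs the drug with the antibody and so asks what the drug does to tumor transcripts when an antibody against this chemokine is given.

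Libraries of different groups were as alike as libraries of the same group. Correlations of log2(FPKM + 1) between pairs of libraries ranged from 0.949 to 0.976 (median 0.971) within anti-CXCL10, from 0.963 to 0.976 (0.971) within anti-CXCL10 plus GSK343, and from 0.954 to 0.980 (0.972) between the groups. On the first principal component, which held 27.9% of the variance, the libraries without GSK343 lay between -32.6 and 27.4 and those with it between -20.1 and 24.7. The hepatoma identity of the tissue was plain in both groups: albumin (Alb) ranged from 3203 to 4401 FPKM without GSK343 and from 2648 to 4279 with it. Markers of skeletal muscle and of skin keratinocytes, tissues next to a subcutaneous tumor, were high in some libraries of each group and low in others. The 24 skeletal muscle markers in the table summed to between 61.0 and 456 FPKM without GSK343 and between 98.1 and 223 with it. The 21 keratinocyte markers summed to between 363 and 646 FPKM without it and between 406 and 590 with it, and up to 10 of them were listed at 0 in a library. These sums understate the variation: treated replicate 1 had 445 FPKM with 10 markers at 0, and treated replicate 3 had 441 with none at 0. The mean log2(FPKM + 1) of these markers ran from 1.46 to 4.36 without the drug and from 1.54 to 4.31 with it. The level of a cell type's markers in bulk RNA cannot tell fewer cells from less RNA per cell.

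No gene passed the test. With limma, 0 of 13692 genes had a Benjamini-Hochberg adjusted p under 0.05 (0%), and the smallest adjusted p was 0.9996. At an unadjusted p under 0.05 there were 431 genes (3.15%), against the 684.6 that make up 5% of those tested. Of these, 245 were higher with GSK343 (1.79%) and 186 were lower (1.36%); the split was 205 to 211 with median-ratio scaling and 218 to 207 with quantile normalization. Values of the groups did not overlap for 38 genes higher with GSK343 (0.278%) and 13 genes lower (0.0949%). Changes were small: the median size over all genes was 0.08 on the log2(FPKM + 1) scale with a median SE of 0.13. On that scale 44 genes (0.321%) differed by 2-fold or more in FPKM + 1. The 95% interval lay within a 2-fold change of FPKM + 1 in either direction for 13075 genes (95.5%). It lay within a 1.5-fold change for 11245 (82.1%). For low genes these bounds are looser in FPKM itself. Among the 9538 genes with a mean of at least 5 FPKM, the counts were 9151 (95.9%) and 8116 (85.1%). For most of these genes the libraries bound the effect. Slightly more genes were higher than lower (7355, 53.7%, against 6337, 46.3%), and the median change was 0.01. The share higher was 50.9% with median-ratio scaling and 50.6% with quantile normalization. The plot of change against p shows this cloud, with mitotic genes to its right and endothelial genes to its left.

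**Figure D1:**
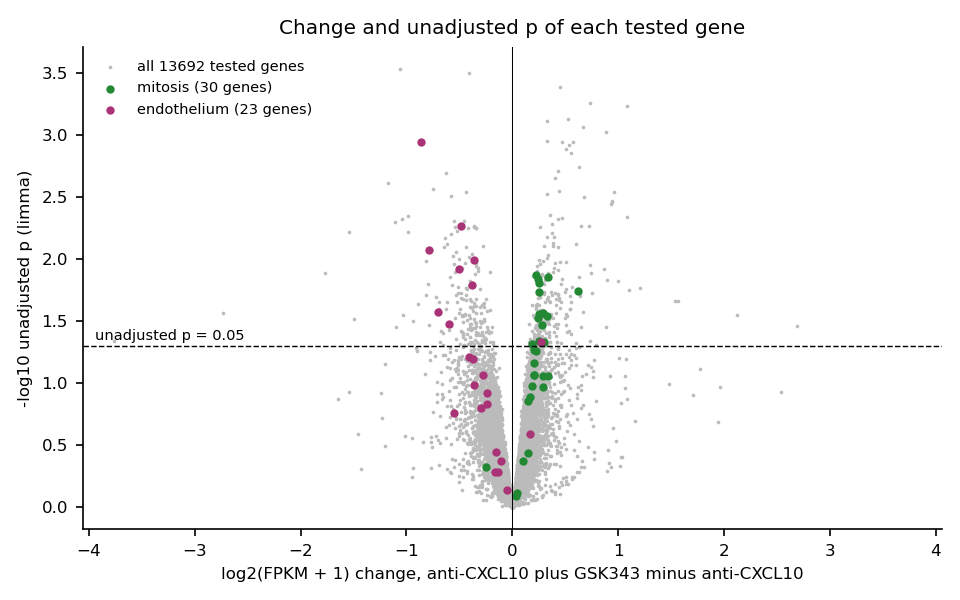
Each point is a gene: the x axis is its change with GSK343 on the log2(FPKM + 1) scale, the y axis its -log10 unadjusted p from limma across all genes tested, and the dashed line marks the 0.05 level. The 30 mitotic genes (green) lie to the right of 0 except for 1, and 21 of the 23 endothelial genes (purple) lie to the left.

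Cxcl10 itself was at nearly the same level with and without the inhibitor. The 5 anti-CXCL10 libraries had 155, 66.5, 126, 153 and 77.9 FPKM of Cxcl10 (replicates 1 to 5), and the 5 with GSK343 had 114, 111, 110, 131 and 82.2. The ranges overlap, and the libraries without GSK343 hold both the highest and the lowest value. Means were 116 ± 41.5 and 110 ± 17.4 FPKM (SD, n = 5 each), a change of -0.01 ± 0.24 (SE) with a 95% interval from -0.53 to 0.51 (limma adjusted p = 0.9996). Cxcl10 (ENSMUSG00000034855) lies on the minus strand of chromosome 5 (chr5:92346638-92348889, GRCm38) and overlaps Art3, and the 2 genes may share fragments. Cxcl9, the neighboring interferon-induced chemokine that binds the same receptor, had 98.1, 38.5, 87.1, 120 and 62.7 FPKM without GSK343 and 76.9, 77.0, 105, 88.1 and 71.9 with it. Its values with GSK343 all fell inside the range without it, and the change was 0.13 ± 0.26 (95% interval -0.44 to 0.70). Cxcl11 and the receptor gene Cxcr3 were low and were left out of the test by the low-value filter. The mouse annotation lists Cxcl11 as a polymorphic pseudogene, so its transcript need not yield a working protein in these mice. Cxcl11 had between 0.124 and 1.72 FPKM without GSK343 and between 0.770 and 2.15 with it, and Cxcr3 between 0.701 and 1.24 and between 0.580 and 1.41.

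The promoters of Cxcl10 and Cxcl9 are shown because both transcripts varied together over the libraries. They are the 300 bases around each start site from RefSeq (GRCm38.p6, minus strand, written 5′ to 3′, chr5:92348840-92349139 and chr5:92328030-92328329), with capitals at matches to the interferon-stimulated response element, to a 10-letter NF-kB form and to the 9-letter NF-kB form GGGANTTCC, searched on both strands.
Cxcl10: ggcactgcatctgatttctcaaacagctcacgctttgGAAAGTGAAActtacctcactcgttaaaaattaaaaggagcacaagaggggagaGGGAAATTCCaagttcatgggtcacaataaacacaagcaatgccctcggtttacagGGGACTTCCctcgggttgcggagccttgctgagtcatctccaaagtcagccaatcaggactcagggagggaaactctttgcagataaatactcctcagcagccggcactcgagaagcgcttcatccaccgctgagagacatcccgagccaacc
Cxcl9: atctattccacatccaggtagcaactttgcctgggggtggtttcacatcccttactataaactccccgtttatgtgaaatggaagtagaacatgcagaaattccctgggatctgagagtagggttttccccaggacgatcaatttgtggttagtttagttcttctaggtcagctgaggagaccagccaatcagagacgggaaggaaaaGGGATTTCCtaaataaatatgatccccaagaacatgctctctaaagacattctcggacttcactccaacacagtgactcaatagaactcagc
In Cxcl10 the matches begin at positions -213 (GAAAGTGAAA), -159 (GGGAAATTCC) and -103 (GGGACTTCC) relative to the start site, and in Cxcl9 a single match begins at -42 (GGGATTTCC). None of these matches overlap each other. Of 32817 promoters of this length, 3.43% hold the first motif, 1.47% the second and 1.68% the third. Over the 10 libraries, the log2(FPKM + 1) values of Cxcl10 and Cxcl9 had r = 0.877 (permutation p = 0.00024, adjusted over 3 relations 0.00072) and rho = 0.782 (permutation p = 0.0105, adjusted 0.0315). Without the 2 libraries farthest from the median of Cxcl10, replicates 2 and 5 of anti-CXCL10, r was 0.724. Cxcl10 and the T cell score (mean log2(FPKM + 1) of T cell markers) had r = 0.635 (permutation p = 0.0504, adjusted 0.0755) and rho = 0.612 (permutation p = 0.066, adjusted 0.099). That relation rests on the same 2 libraries, since r was 0.270 without them. Cxcl10 and Ezh2 had r = -0.06 (permutation p = 0.863, adjusted 0.863) and rho = -0.14 (permutation p = 0.708, adjusted 0.708), and r was -0.21 without those libraries.

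**Figure D2:**
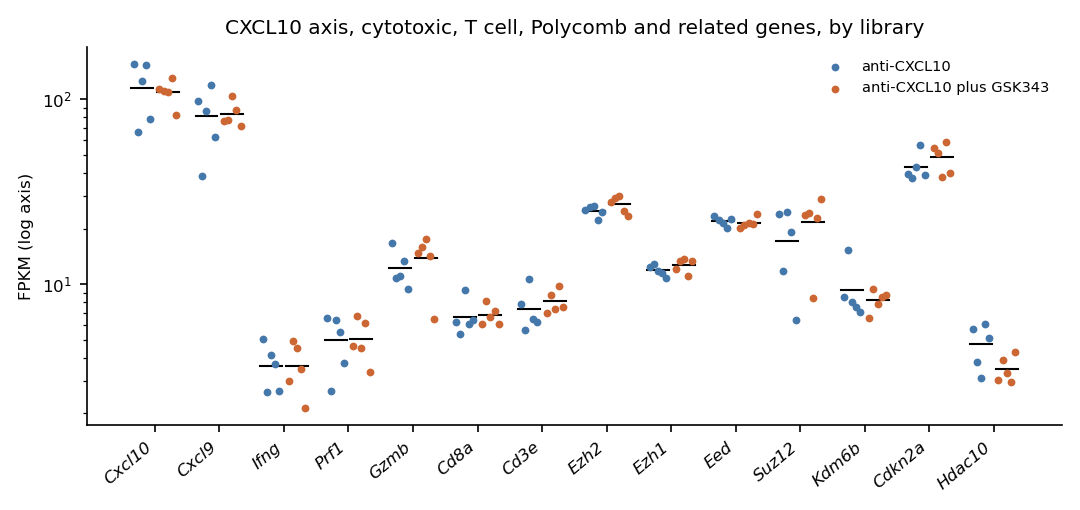
Each point is 1 library, in blue for anti-CXCL10 and orange for anti-CXCL10 plus GSK343, and the bars are group means (n = 5 each); the y axis is FPKM on a log scale. For all 14 genes the groups overlap, and Suz12 has libraries at 6.43 and 11.8 FPKM without GSK343 and at 8.41 with it, below the others.

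Effector genes of cytotoxic lymphocytes overlapped between the groups in the same way. Ifng, which encodes interferon-gamma, had 5.05, 2.61, 4.14, 3.69 and 2.65 FPKM without GSK343 and 2.99, 4.90, 4.53, 3.46 and 2.14 with it (change -0.02 ± 0.20). Gzmb, the gene of the protease granzyme B, had 16.7, 10.8, 11, 13.4 and 9.43 FPKM without GSK343 and 14.7, 15.9, 17.5, 14.3 and 6.52 with it (0.12 ± 0.23). With GSK343, 4 of 5 libraries lay above the mean without it, and replicate 5 was the lowest of all 10. Prf1, which encodes the pore protein perforin, had 6.56, 2.65, 6.4, 5.48 and 3.77 FPKM without GSK343 and 4.62, 6.69, 4.49, 6.14 and 3.33 with it (0.04 ± 0.22). The 95% intervals of these 3 genes reached 0.42, 0.63 and 0.53 at their upper ends. Among the 13 cytotoxic effector genes tested, 10 were higher and 3 lower, with a median change of 0.10 against 0.01 over all genes, and none reached an unadjusted p of 0.05.

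T cell markers leaned slightly upward without any gene passing. Of 21 tested, 18 were higher with GSK343 and 3 lower (median 0.15), and 1 reached an unadjusted p under 0.05. That gene was Tcf7, a transcription factor of naive and memory-like T cells, with 44.9, 48.7, 44.2, 41.3 and 51.7 FPKM without GSK343 and 55.3, 49.6, 49.5, 52.3 and 53.5 with it (0.17 ± 0.08). Cd3e, a subunit of the T cell receptor complex, had 7.86, 5.67, 10.6, 6.48 and 6.24 FPKM without GSK343 and 7.01, 8.74, 7.36, 9.77 and 7.54 with it (0.14 ± 0.15). Under control antibody, Cd3e ran from 4.33 to 7.10 FPKM alone and from 9.45 to 24.05 with GSK343. Tcf7 ran there from 35.99 to 56.60 FPKM alone and from 41.24 to 54.81 with GSK343, so it did not follow Cd3e. Which cells the Tcf7 transcript came from was not tested. For Cd8a, the coreceptor of cytotoxic T cells, the change was 0.04 ± 0.13, from 6.68 ± 1.5 to 6.81 ± 0.860 FPKM. The 24 T cell markers in the table, Tcf7 among them, summed to between 190 and 274 FPKM without GSK343 and between 214 and 289 with it. The lean depends on which libraries are used: 13 of 21 were higher without the 3 libraries highest in keratinocyte markers, with a median of 0.07. The median was 0.10 without replicate 4 of anti-CXCL10 plus GSK343. NK cell markers (5 of 8 higher, median 0.12) and regulatory T cell and checkpoint genes (9 of 12 higher, median 0.10) had no gene at an unadjusted p under 0.05, and without those 3 libraries the median of the latter was -0.07.

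Interferon response and antigen presentation showed no common direction. Among 25 genes of the interferon-gamma pathway and its responses, 9 were higher and 16 lower (median -0.04), and 0 had an unadjusted p under 0.05. Ido1, an interferon-induced enzyme of tryptophan breakdown, had the smallest p of these (0.46 ± 0.30, unadjusted p = 0.149), and the GTPase gene Iigp1 differed by -0.17 ± 0.12. The type I interferon list had 13 higher and 18 lower of 31 (median -0.05). Oasl1, a relative of the antiviral oligoadenylate synthetases, was its only gene at an unadjusted p under 0.05, with 18.3, 10.8, 13.1, 9.96 and 15.1 FPKM without GSK343 and 26.3, 18.9, 14.2, 17.1 and 20.9 with it (0.51 ± 0.18, unadjusted p = 0.0174). MHC class I presentation had 13 higher and 8 lower (median 0.03) and none at an unadjusted p under 0.05, with changes of 0.35 ± 0.18 and 0.24 ± 0.13 for the proteasome activator subunit genes Psme2 and Psme1. MHC class II presentation had 9 of 10 higher (median 0.13), of which H2-Oa, a modulator of peptide loading, reached an unadjusted p of 0.0208 at 1.24 ± 0.41 and 2.03 ± 0.562 FPKM. Of 27 other chemokine genes, 12 were higher and 15 lower. Cxcl14 had 5.38 ± 0.936 FPKM without GSK343 and 7.67 ± 1.89 with it (0.43 ± 0.16), and the neutrophil attractant Cxcl1 had 12.7 ± 3.37 and 8.09 ± 3.45 FPKM (-0.62 ± 0.24).

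Myeloid markers were mixed. Macrophage and monocyte markers had 15 of 26 higher (median 0.05) and none at an unadjusted p under 0.05. Within them Arg1, the arginase of alternatively activated macrophages, had 77.2, 87.0, 86.7, 139 and 65.3 FPKM without GSK343 and 50.8, 61.0, 110, 50.4 and 52.9 with it (-0.50 ± 0.24, unadjusted p = 0.0621). The mannose receptor gene Mrc1 (-0.34 ± 0.19) and the efferocytosis receptor gene Mertk (-0.39 ± 0.19) lay on the same side, and Lyz2, the lysozyme of myeloid cells, on the other (0.27 ± 0.16). Neutrophil markers had 9 of 11 higher, 3 of them at an unadjusted p under 0.05 (median 0.31), where 53.7% of all genes were higher and 1.79% reached that level. Retnlg, a resistin-like gene of neutrophils, had 7.59, 5.93, 5.18, 4.76 and 4.66 FPKM without GSK343 and 7.77, 12.5, 10.4, 8.10 and 11.5 with it, so that the groups did not overlap (0.74 ± 0.15, unadjusted p = 0.00055). The decoy receptor gene Il1r2 (0.45 ± 0.15) and the lipolysis inhibitor gene G0s2 (0.43 ± 0.14) were the other two. The median was 0.20 without replicate 3 of anti-CXCL10 plus GSK343. The 15 neutrophil markers in the table summed to between 97.8 and 126 FPKM without GSK343 and between 110 and 172 with it.

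Genes of the drug's own pathway differed little. Ezh2 (chr6:47530274-47595341) had 25.3, 26.3, 26.5, 22.3 and 24.5 FPKM without GSK343 and 27.8, 29.4, 30.2, 24.7 and 23.3 with it, a change of 0.11 ± 0.09 (95% interval -0.09 to 0.30). Its paralog Ezh1 differed by 0.09 ± 0.08, and Eed, the subunit that reads the mark, by -0.03 ± 0.07. Suz12, the scaffold subunit, varied widely within each group, with 23.9, 11.8, 24.6, 19.2 and 6.43 FPKM without GSK343 and 23.7, 24.2, 8.41, 22.9 and 28.8 with it (0.35 ± 0.39). PRC2 subunits as a list had 5 of 11 higher (median -0.03), and the genes of H3K27 demethylases and PRC1, the partner complex of PRC2, 5 of 17 higher (median -0.01). Kdm6b, a demethylase that removes the mark, differed by -0.11 ± 0.18.

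Most of the known targets of Polycomb repression listed here had no row in the table, so their levels are not known. Every row of the table has at least 1 FPKM in at least 4 of the 19 libraries. Of 80 listed developmental transcription factors 23 were in the table and 14 were tested, of which 5 were higher and 9 lower (median -0.08), with none at an unadjusted p under 0.05. Hoxd8 had 1.66 ± 0.516 FPKM without GSK343 and 1.15 ± 0.366 with it (-0.30 ± 0.16), and Tbx3 22 ± 4.15 and 18.8 ± 1.88 (-0.20 ± 0.12). Cyclin-dependent kinase inhibitors, among them the classical Polycomb target Cdkn2a, had 4 of 7 higher (median 0.06). Cdkn2a had 39.6, 37.7, 42.8, 56.9 and 38.8 FPKM without GSK343 and 54.4, 51.5, 37.9, 58.9 and 40.2 with it, overlapping throughout (0.16 ± 0.15). Hdac10, a deacetylase, had 5.73, 3.81, 3.09, 6.06 and 5.09 FPKM without GSK343 and 3.03, 3.87, 3.29, 2.96 and 4.29 with it; all 5 treated libraries lay below the mean without GSK343, and the change was -0.34 ± 0.16 (unadjusted p = 0.0579).

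The gene list with the most members at a low unadjusted p was that of mitosis. Of its 30 genes, 29 were higher with GSK343 and 1 lower (median 0.23 against 0.01 over all genes), and 14 had an unadjusted p under 0.05, all of them higher, where 1.79% of all genes did. None passed after adjustment. Kif23, a kinesin of the cleavage furrow, had 12.0, 13.4, 14.5, 12.1 and 13.4 FPKM without GSK343 and 15.5, 16.2, 15.2, 14.5 and 15.2 with it, and the groups did not overlap (0.22 ± 0.08, unadjusted p = 0.0135). Ccnb2, which encodes cyclin B2, had 21.4, 24.7, 26.6, 26.9 and 28.8 FPKM without GSK343 and 29.9, 32.1, 29.4, 30.7 and 29.9 with it, again without overlap (0.24 ± 0.08). Ube2c, a conjugating enzyme of the anaphase-promoting complex that overlaps Tnnc2 in the annotation, differed by 0.34 ± 0.12, and the checkpoint kinase gene Bub1 by 0.25 ± 0.09. Mki67, the common proliferation marker, was not among the 14 (21.8 ± 2.81 and 23.6 ± 4.07 FPKM, 0.10 ± 0.13; chosen after its values were seen), nor was Foxm1, the single member that was lower (-0.25 ± 0.34), also named after its values were seen. The mitosis score was 4.01, 4.17, 4.35, 4.15 and 4.36 without GSK343 and 4.32, 4.50, 4.38, 4.35 and 4.58 with it, so replicates 3 and 5 of anti-CXCL10 reach into the treated range. Between 27 and 29 of the 30 genes were higher when any 1 library was left out, but the number at an unadjusted p under 0.05 then ran from 5 to 19. It was 5 and 9 without replicates 1 and 2 of anti-CXCL10, 8, 9 and 7 without replicates 2, 4 and 5 of anti-CXCL10 plus GSK343, and 4 without the 3 libraries highest in keratinocyte markers.

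Promoters of mitotic genes often carry the cell cycle homology region TTTGAA, through which repressor complexes hold them silent outside division. Of 25 mitotic genes with a promoter in the RefSeq table, 18 held these letters on either strand, against 20.2% of 26994 genes. Kif23 is shown as the member with the smallest p that holds a match, which begins at position 3 after the start site (chr9:61946750-61947049, GRCm38.p6, minus strand, 5′ to 3′, match in capitals).
Kif23: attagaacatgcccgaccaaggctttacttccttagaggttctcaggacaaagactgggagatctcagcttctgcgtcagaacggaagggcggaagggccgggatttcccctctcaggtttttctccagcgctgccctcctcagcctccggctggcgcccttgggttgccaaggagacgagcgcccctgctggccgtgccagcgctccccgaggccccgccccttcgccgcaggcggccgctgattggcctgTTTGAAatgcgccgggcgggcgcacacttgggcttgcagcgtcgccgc

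DNA replication genes lay on the same side with smaller changes. Of 32 tested, 31 were higher (median 0.13), and 2 had an unadjusted p under 0.05: Pcna, the sliding clamp, at 83.3 ± 11.2 and 98.4 ± 6.10 FPKM (0.25 ± 0.10), and the polymerase gene Pole at 2.66 ± 0.296 and 3.56 ± 0.762 FPKM (0.31 ± 0.13). Genes of cholesterol and fatty acid synthesis had 28 of 31 higher (median 0.14), 5 at an unadjusted p under 0.05, against 53.7% and 1.79% of all genes. Pmvk, phosphomevalonate kinase, had 16.5, 14.3, 17.6, 16.7 and 15.6 FPKM without GSK343 and 17.8, 21.5, 18.2, 18.3 and 18 with it, without overlap (0.20 ± 0.08). Dhcr7, the last enzyme of cholesterol synthesis, differed by 0.43 ± 0.13, Fdps by 0.31 ± 0.11 and the rate-limiting epoxidase gene Sqle by 0.29 ± 0.11. When the 3 libraries with the highest skeletal muscle scores were left out, 17 of 31 were higher, with a median of 0.04, and without replicate 4 of anti-CXCL10 alone it was 24 of 31 with a median of 0.08.

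Endothelial genes leaned the other way. Of 23 tested, 21 were lower with GSK343 and 2 higher (median -0.36), and 8 of the lower had an unadjusted p under 0.05, where 1.36% of all genes did. Esm1, a secreted marker of angiogenic tip cells, had 6.31, 6.26, 8.14, 13.2 and 5.07 FPKM without GSK343 and 3.39, 3.26, 3.62, 4.56 and 3.35 with it, without overlap (-0.86 ± 0.20, unadjusted p = 0.00115, limma adjusted p = 0.9996). Angpt2, the angiopoietin released by endothelium during vessel remodeling, had 12.8, 13.8, 14.9, 22.1 and 12.3 FPKM without GSK343 and 9.62, 9.98, 11.7, 10.1 and 10.6 with it, also without overlap (-0.48 ± 0.14). Esm1 overlaps Gzmk and Angpt2 overlaps Mcph1 in the annotation. Apln, the apelin peptide of sprouting vessels, differed by -0.78 ± 0.25, and Kdr, the main receptor of vascular endothelial growth factor, by -0.36 ± 0.12. The 2 genes that were higher were Flt4 (0.27 ± 0.12), a growth factor receptor of lymphatic vessels, and Egfl7 (0.16 ± 0.14), both named after their values were seen.

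The size of the endothelial difference depended on 1 library. The endothelial score was 3.08, 2.87, 3.04, 3.51 and 2.77 without GSK343 and 2.57, 2.72, 2.90, 2.79 and 2.64 with it, and replicate 4 of anti-CXCL10 was the highest. Without that library 19 of 23 genes were lower and the median was -0.19. The 8 lower genes at an unadjusted p under 0.05 numbered from 7 to 12 with any 1 library left out (12 without replicate 5 of anti-CXCL10) and 4 without the 3 libraries with the highest muscle scores. The same library had the highest skeletal muscle score, and with muscle and keratinocyte scores as covariates 20 of 23 endothelial genes were lower (median -0.27), as were 19 of 22 without the 3 libraries with the highest muscle scores (median -0.25). Vessel-associated pericyte and smooth muscle genes had 9 of 11 lower (median -0.08), with Notch3 at an unadjusted p of 0.0461 (-0.29 ± 0.13). The plot of list scores shows the endothelial and mitotic scores beside those of muscle and keratinocytes.

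**Figure D3:**
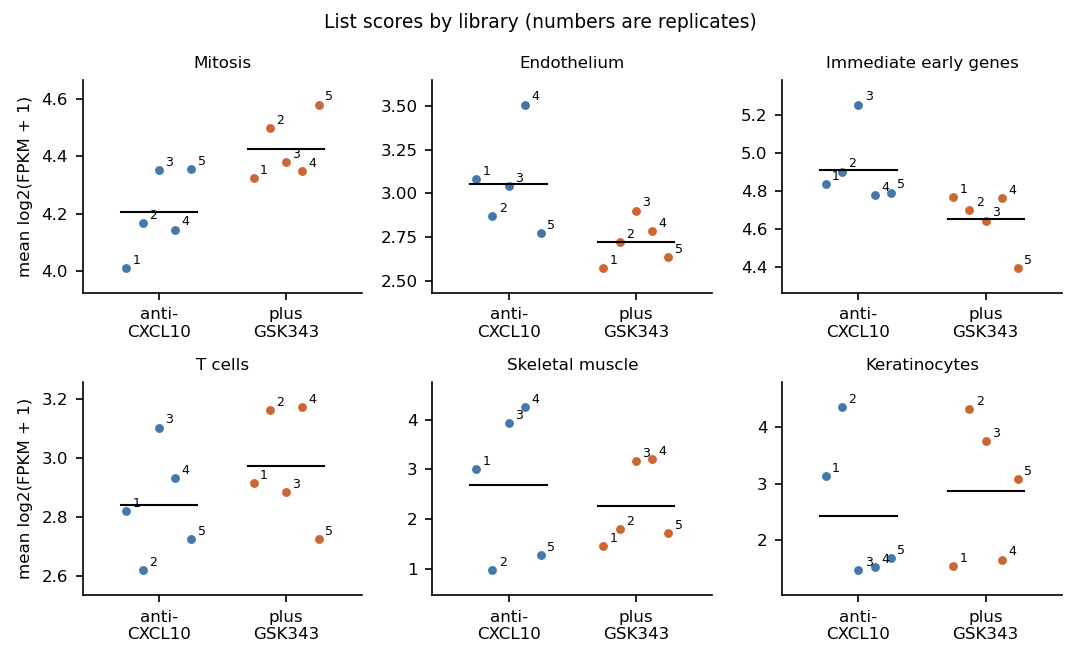
Each panel gives the mean log2(FPKM + 1) of 1 list in each library, in blue without and orange with GSK343; numbers are replicates, bars are group means (n = 5 each), and the y axes differ and do not start at 0. The immediate early scores of the groups do not overlap, while muscle scores run from 0.972 to 4.26 and keratinocyte scores from 1.46 to 4.36 across both groups.

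Fibroblast and matrix genes were mostly lower. Of 31 tested, 27 were lower and 4 higher (median -0.15), and 5 of the lower had an unadjusted p under 0.05, where 46.3% of all genes were lower and 1.36% at that level. Col6a1, a chain of beaded-filament collagen, had 44.0, 49.4, 41.4, 55.2 and 33.3 FPKM without GSK343 and 24.6, 34.3, 38.9, 25.3 and 30.5 with it; only replicate 5 without the drug fell inside the treated range (-0.53 ± 0.16, unadjusted p = 0.00594). Its partner chain Col6a2 differed by -0.53 ± 0.17, the collagen cross-linking enzyme gene Lox by -0.58 ± 0.24 and Col1a1 by -0.38 ± 0.16. The 5 genes at an unadjusted p under 0.05 became 2 without replicate 1 of anti-CXCL10 or replicates 1 or 4 with the drug, 3 without replicates 2 or 4 of anti-CXCL10, 8 without its replicate 5 and 11 without replicate 3 with the drug. Without replicate 1 of anti-CXCL10 the median was -0.10, and it was -0.33 without the 3 libraries highest in keratinocyte markers.

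Immediate early genes, which are transcribed within minutes of a stimulus were lower with GSK343 in 20 of 22 cases (median -0.19), 7 of them at an unadjusted p under 0.05. Of all genes 46.3% were lower, 1.36% at that level. Fos, a subunit of the AP-1 factor, had 50.4, 58.3, 72.8, 22.8 and 52.4 FPKM without GSK343 and 34.6, 20.9, 23.8, 26.1 and 31.6 with it (-0.81 ± 0.26). Replicate 4 without the drug lay in the treated range and the other four above it. Fosb differed by -0.80 ± 0.28, Jun by -0.38 ± 0.15, and the stress-induced repressor gene Atf3 by -0.61 ± 0.19. The scores did not overlap, with 4.83, 4.90, 5.26, 4.78 and 4.79 without GSK343 and 4.77, 4.70, 4.64, 4.76 and 4.39 with it, although the gap between the nearest libraries was narrow. The 7 genes at an unadjusted p under 0.05 became 3 without replicate 3 of anti-CXCL10, and 4 without replicate 2 of anti-CXCL10 or replicate 5 with the drug. Heat shock chaperones had 12 of 16 lower (median -0.06), 4 at an unadjusted p under 0.05: Dnajb1 (-0.36 ± 0.11), Hspb1 (-0.72 ± 0.27), Hspa1a (-0.69 ± 0.27) and Hspa1b (-0.67 ± 0.28). The last pair are near-identical copies whose fragments could be shared. 

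Hepatoma genes did not lean. Of 26 hepatoma and oncofetal genes 12 were higher and 14 lower (median -0.04), and liver transcription factors divided 8 to 8. Alb differed by -0.17 ± 0.14 and the transferrin gene Trf by -0.21 ± 0.18. The plot of list members sets all these groups side by side.

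**Figure D4:**
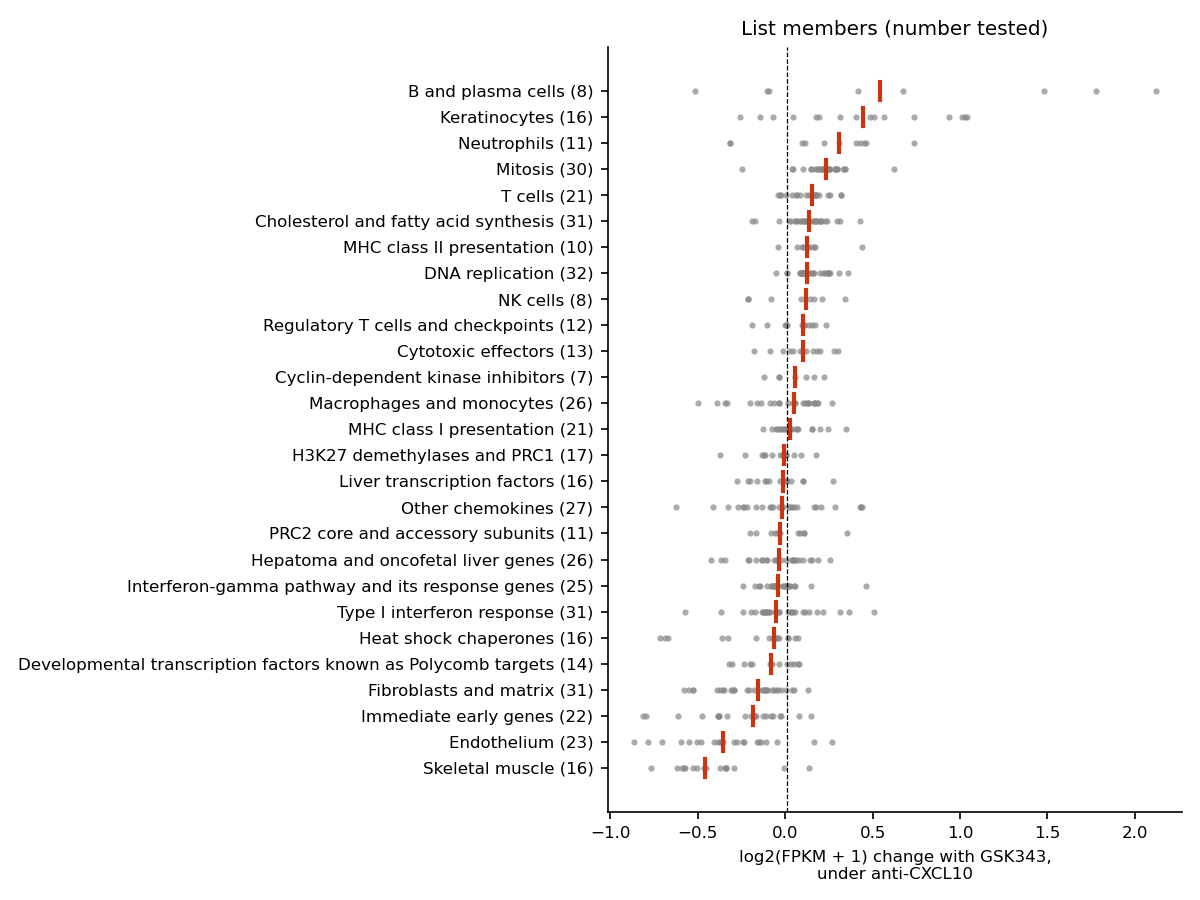
Each gray point is the change of 1 gene with GSK343 under anti-CXCL10 on the log2(FPKM + 1) scale, each row is a gene list with the number tested, red bars are list medians, and the dashed line is the median of all genes (0.01). Medians run from -0.46 for skeletal muscle markers to 0.54 for B and plasma cell markers, both lists of widely varying genes.

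The genes with the smallest p are given for their values, since none passed. Bmp4, a secreted growth factor, had 13.0, 13.4, 11.7, 12.1 and 9.19 FPKM without GSK343 and 4.58, 4.23, 10.1, 4.18 and 4.18 with it (-1.06 ± 0.21, unadjusted p = 0.000294, limma adjusted p = 0.9996). In 4 treated libraries Bmp4 was within 4.18 to 4.58 FPKM, and replicate 3 lay among the libraries without the drug. Without that replicate the change was -1.27 (limma adjusted p = 0.00256). Leaving out the library that differs from its group narrows the spread by itself, so this value is not support for a change. Cav1, the coat protein of caveolae, had 2.63, 2.71, 2.51, 3.53 and 5.60 FPKM without GSK343 and 4.96, 8.95, 11.6, 9.97 and 6.4 with it (1.08 ± 0.23). Replicate 5 without the drug was above replicate 1 with it. Ncf1, a subunit of the phagocyte NADPH oxidase, (which overlaps Gtf2ird2) had 6.22, 6.58, 5.48, 5.42 and 6.41 FPKM without GSK343 and 9.21, 7.93, 7.61, 9.51 and 8.87 with it, without overlap (0.45 ± 0.09). The phosphatase genes Ptprr (0.67 ± 0.15) and Ptp4a1 (0.51 ± 0.12) and the tail-anchored protein insertion factor Get4 (0.33 ± 0.07) were higher without overlap too.

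On the lower side, Retnla, a resistin-like product of alternatively activated macrophages, had 15.3, 49.3, 56.1, 111 and 47.2 FPKM without GSK343 and 12.6, 21.1, 23.8, 9.17 and 15 with it (-1.54 ± 0.45, unadjusted p = 0.00602). All 5 treated libraries lay below the mean without the drug, and replicate 1 without it lay among them. Lrrc32, which presents latent TGF-beta on regulatory T cells and endothelium, had 5.07, 7.28, 6.26, 6.14 and 4.72 FPKM without GSK343 and 4.00, 4.24, 4.38, 3.37 and 4.22 with it, without overlap (-0.44 ± 0.12). Gpihbp1, the anchor of lipoprotein lipase on capillary endothelium, had 15.8 ± 4.51 and 10.2 ± 1.03 FPKM, also without overlap (-0.55 ± 0.16). The transcription factor subunit gene Taf13 had 13.2 ± 1.57 and 9.65 ± 1.86 FPKM (-0.42 ± 0.12).

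Some of these values had more than 1 level within a group. Ier3ip1, a small protein of the endoplasmic reticulum whose gene overlaps Hdhd2, had 32.9, 33.8, 37.2 and 31.2 FPKM in replicates 2 to 5 without GSK343 and 73.6 in replicate 1, against 70.0 to 79.3 with it (0.88 ± 0.20). Without replicate 1 of anti-CXCL10 the change was 1.10 (limma adjusted p = 0.000803). That library is the one that differs from its group, so this value is not support for a change either. Adat3, a subunit of a tRNA-editing deaminase, had 12.1, 11.3, 13.2, 12.9 and 7.24 FPKM without GSK343 and 3.09, 2.61, 11.7, 3.28 and 6.09 with it (-1.11 ± 0.32). Scamp4 (chosen after its values were seen) was listed at 0 in the 5 libraries with the highest Adat3, replicates 1 to 4 without the drug and replicate 3 with it, and at 8.95 to 28.4 FPKM in the others.

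Libraries of control antibody, with and without GSK343, give a reference from the same table that shares no library with the comparison above. There, 243 of 13751 genes (1.77%) passed in a limma fit of those 2 groups alone (n = 4 and 5), 186 higher and 57 lower. Of the 186, 176 were tested under anti-CXCL10: 122 were higher there (69.3%, against 53.9% of the 13434 genes tested in both), with a median change of 0.07 where it had been 1 under control antibody, and 0 passed. Of the 57 lower, 43 were lower under anti-CXCL10 (75.4%, against 46.1% of all), with a median of -0.08 where it had been -0.62. Among genes at least 2-fold higher in FPKM + 1 under control antibody, 67 of the 89 tested (75.3%) were higher. Of the 8 at least 2-fold lower on that scale, 4 were lower. A fit of all 4 groups called more genes under control antibody, 627 higher and 160 lower. Of those tested under anti-CXCL10, 342 of 565 (60.5%) were higher there with a median of 0.03, and 95 of 160 (59.4%) were lower with a median of -0.03. The change was smaller under anti-CXCL10 for 231 of these 233 genes, a count inflated by the choice of genes on their change under control antibody. Over the 13434 genes the changes in the 2 settings had r = 0.018 and rho = 0.047, a description across genes, which are not independent replicates. The plot of genes called under control antibody shows them spread along the x axis and close to 0 on the y axis.

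**Figure D5:**
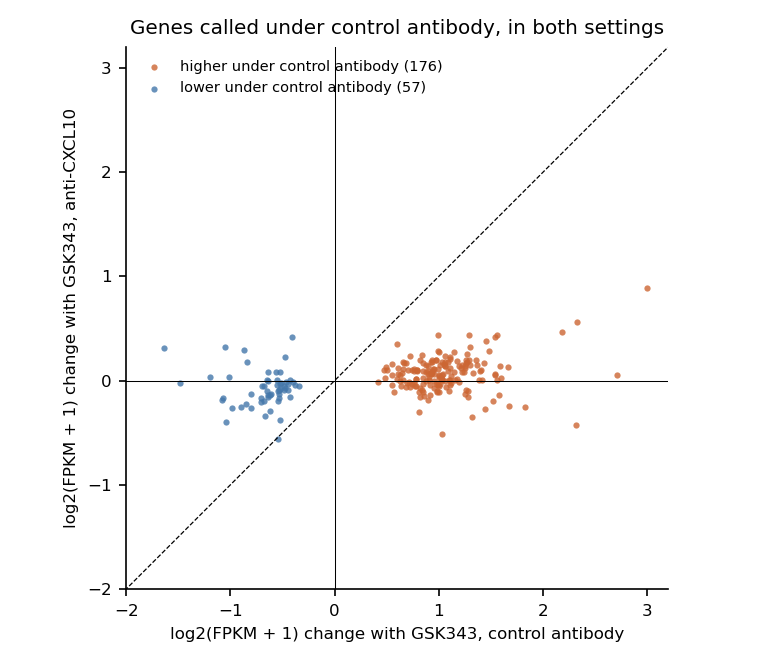
Each point is a gene called with GSK343 under control antibody (176 higher in orange, 57 lower in blue); the x axis is its change there and the y axis its change under anti-CXCL10, both on the log2(FPKM + 1) scale, and the dashed line marks equal changes. Points lie near the horizontal line, with medians of 0.07 and -0.08.

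The difference between the settings was tested gene by gene in a fit of all 19 libraries. With limma, 9 of 14385 genes (0.0626%) passed the GSK343 by antibody interaction, all with a lower change under anti-CXCL10. They include the leukocyte receptor genes Ly9 (interaction -1.43 ± 0.22) and Cd48 (-1.10 ± 0.19), the chemokine gene Ccl6 (-1.92 ± 0.34), the leukocyte migration regulator Dock2 (-0.96 ± 0.17) and Alox5ap, which is needed for leukotriene synthesis (-1.38 ± 0.24). Under control antibody the mean of Cd48 was 8.02 ± 1.43 FPKM alone and 20.6 ± 4.32 with the drug (n = 4 and 5), and under anti-CXCL10 it was 8.86 and 9.88. Ccl6 averaged 74.4 ± 18.4 and 241 ± 58.6 FPKM with control antibody, and 83.1 and 68.5 under anti-CXCL10. For Cxcl10 the change under control antibody was 1.05, which did not pass (adjusted p = 0.0701), and under anti-CXCL10 it was -0.01; their difference did not pass either (-1.06 ± 0.37, adjusted p = 0.222). Nor did it pass for Ifng (-1.54 ± 0.42, adjusted p = 0.131), Prf1 (-1.46 ± 0.49, 0.204), Gzmb (-1.07 ± 0.43, 0.282) or Cd3e (-1.05 ± 0.30, 0.141). The number of interaction calls rests on single libraries: it was 472 without replicate 1 of control antibody plus GSK343, 57 without replicate 5 of anti-CXCL10, 44 without replicate 3 of control antibody, 1 without replicate 1 of control antibody or replicate 4 of anti-CXCL10, and 0 without replicate 5 of control antibody, replicate 2 of control antibody plus GSK343, replicate 3 of anti-CXCL10, or replicates 1 or 5 of anti-CXCL10 plus GSK343. Without any other single library it was between 3 and 11.

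Levels with control antibody are given for some of the genes with the smallest p, chosen after their values were seen. The sample numbers in the column names start again with each antibody. Whether the libraries of each antibody were handled apart is not stated, and such handling could not be told apart from the antibody. Under control antibody the mean of Esm1 was 3.96 ± 0.869 FPKM alone and 3.1 ± 0.598 with the drug, near the 3.64 of anti-CXCL10 plus GSK343 and below the 7.80 of anti-CXCL10 alone. Cav1 averaged 11.3 ± 2.95 and 13.4 ± 2.37 FPKM with control antibody, above the 3.4 of anti-CXCL10 alone. Ier3ip1 averaged 77.0 ± 5.73 and 74.2 ± 6.02 FPKM with control antibody, close to the 73.7 of anti-CXCL10 plus GSK343. For these 3 genes anti-CXCL10 alone had the most distant mean of the 4 groups, and the same held for Angpt2 and Ptprr. Angpt2 averaged 10.8 and 12.9 FPKM with control antibody, alone and with the drug, against 15.2 and 10.4 with anti-CXCL10. Ptprr averaged 6.07 and 7.19 FPKM with control antibody, alone and with the drug, against 4.35 and 7.62 with anti-CXCL10. Apln, Ccnb2, Pcna and Fdps, list members also chosen after their values were seen, are given as ranges. With control antibody alone they ran from 4.06 to 4.89, 27.8 to 29.8, 92.5 to 129 and 88.2 to 94.4 FPKM. With control antibody plus GSK343 they ran from 3.85 to 6.01, 24.7 to 35.5, 99.9 to 115 and 68.5 to 96.8. With anti-CXCL10 alone they ran from 5.76 to 15.4, 21.4 to 28.8, 66.7 to 94.6 and 59.5 to 86.6. With anti-CXCL10 plus GSK343, Apln was at most 7.17 FPKM. Ccnb2, Pcna and Fdps ran there from 29.4 to 32.1, 92.8 to 107 and 81.4 to 99.7. Each of these treated ranges overlapped that of control antibody alone. The pattern was not general. Kif23 and Bub1 ran from 12.5 to 14.5 and 8.37 to 10.6 FPKM with control antibody alone. With anti-CXCL10 alone they ran from 11.95 to 14.5 and 8.42 to 10.7. How many members of each list followed the pattern was not tested. Taf13, Dnajb1, Ncf1 and Lrrc32 had means of 13.2, 29.3, 6.61 and 5.58 FPKM with control antibody alone and 13.2, 30.0, 6.02 and 5.89 with anti-CXCL10 alone. With GSK343 under control antibody, Dnajb1, Col6a1 and Retnla changed by 0.43, 0.62 and 1.15, the opposite side from anti-CXCL10. None of these passed (limma adjusted p = 0.403, 0.405 and 0.535). Ncf1 changed there by 0.89, the same side, and did not pass (limma adjusted p = 0.0627). Under control antibody the mean of Bmp4 was 11.1 ± 4.92 FPKM alone and 6.77 ± 3.84 with the drug (change -0.65, adjusted p = 0.472), the same side as under anti-CXCL10. The interactions of Esm1, Cav1, Ier3ip1 and Bmp4 did not pass (adjusted p = 0.339, 0.246, 0.11 and 0.795).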

How the data were processed

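The authors deposited 1 table of FPKM per gene, made from poly-A RNA-seq; the unit was inferred from the values, whose length-weighted column sums varied by 0.79% (plain sums, 4.06%). The submitters' processing notes name StringTie 1.3.3b, HTSeq 0.6.0, HISAT2 2.1.0, TopHat2 2.1.0 and Trimmomatic 0.33, and the builds mm10 and GRCm38, without their roles. Depth is unknown, so no counting error can be given. Control antibody replicate 4 is not analysed here, and the series' design text gives 3 replicates where the labels number 5. Rows of 8 repeated gene IDs were added.

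Values were tested as log2(FPKM + 1), which understates changes of low genes, with limma 3.58.1 (R 4.3.3; trend, robust, two-sided), tested on simulated data, on genes reaching 1 FPKM in 5 or more of the libraries fitted. The main model held the 10 anti-CXCL10 libraries, the interaction all 19. Lists are described by counts and medians without a test. Members and lists were chosen with earlier results of these data known. Named genes are key genes, the 10 per direction with the smallest p and the 10 with the largest change without overlap (5 FPKM or more), up to 4 members of a list by p, and the 10 with the largest SD within groups; some are not described. Alternatives were other pseudocounts, filters, scalings, weights, covariates, a replicate block, all groups in 1 fit and leaving out libraries.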

Additional observations from a re-analysis of the deposited data

Results flagged for a closer look

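In 24 of 160 groups of 5 libraries checked, 1 library lay far from the others (gap over range above 0.71). Chance would flag about 1 in 20 if genes were chosen without regard to their spread. The genes checked include those named for a large SD within groups, so the count cannot be compared with that rate. Among Polycomb and related genes these were Suz12 at 8.41 FPKM in replicate 3 of anti-CXCL10 plus GSK343 (others 22.9 to 28.8), Eed at 24.1 in replicate 5 of that group, Kdm6b at 15.2 in replicate 2 of anti-CXCL10, and Cdkn2a at 56.9 in replicate 4 of anti-CXCL10. Among immune genes they were Cxcl11 at 2.15 FPKM in treated replicate 2 and Cd8a at 9.27 in replicate 3 without the drug. Among endothelial genes Angpt2 was 22.1 FPKM in replicate 4 of anti-CXCL10 and Esm1 4.56 in replicate 4 with GSK343.

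Among genes with a small p or without overlap, Bmp4 was 10.1 FPKM in treated replicate 3 (others 4.18 to 4.58), and Ier3ip1 73.6 in replicate 1 without the drug (others 31.2 to 37.2). Ttc4 was 16.8 in replicate 3, and Ptp4a1 19.9 and Tubgcp4 2.998 in replicate 4, of anti-CXCL10. Rcsd1 was 14 in replicate 2 without the drug and 3.39 in replicate 2 with it, and Pltp 7.62 in treated replicate 1.

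Skin genes stood out in replicate 2 of anti-CXCL10, with Krt1 at 74.1, Krt14 at 41.7 and the epidermal calcium-binding gene Calm4 at 33 FPKM. Gstp2 was listed at 0 in that library (others 110 to 134 FPKM), Mia3 was listed at 0 in treated replicate 2 (others 65.1 to 84), and Eno1b was at 81.4 in treated replicate 3 and listed at 0 in the other four. The type I interferon score was 3.89 in treated replicate 2 (others 3.47 to 3.58), and the immediate early score 5.26 in replicate 3 without the drug.

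The effect of GSK343 differed between antibodies by limma's interaction for 9 genes: Ly9 (-1.43), Cd48 (-1.10), Trpv2 (-1.67), Ccl6 (-1.92), Dock2 (-0.96), Themis2 (-0.97), AB124611 (-1.71), Alox5ap (-1.38) and AI662270 (-1.04). Trpv2 is a cation channel of macrophages and Themis2 a signaling adaptor of myeloid and B cells. Under anti-CXCL10 their changes lay between -0.35 for Trpv2 and 0.14 for Cd48.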

How the results depend on the processing

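The count of 0 called genes held under other pseudocounts, filters and scalings, library weights, covariates and a fit of all groups. It ran from 0 to 2 when 1 library was left out (Ier3ip1; Bmp4 and Gm7582; Agfg1), and 1 gene, Olfml3 (2.49, adjusted p = 0.00477), was called when the 3 libraries with the highest skeletal muscle scores were left out, a setting added after seeing the data, as is leaving out the 3 highest in keratinocyte markers. Genes at an unadjusted p under 0.05 numbered 285 of 9544 tested (2.99%) with a filter at 5 FPKM, 1028 with marker covariates, 980 without those 3 libraries, and 341 to 606 when 1 library was left out. Interaction calls numbered 0 with covariates, and 0 to 472 when 1 library was left out. Libraries with the same replicate number were not treated as pairs, since same-number correlations ran from -0.04 to 0.32 (median over different numbers -0.04) and not every pair correlated; 4 of 10 libraries correlated best with their own number. With the replicate block 0 genes were called, 519 had an unadjusted p under 0.05, and 30 interactions were called.

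Some changes turned sign, among them those of Mia3, Krt1 and Calm4, which were -1.20, 0.41 and 0.53. With covariates these were Cxcl10 (0.14), Ifng (0.045), Krt1 (-0.25) and Calm4 (-0.014); with quantile normalization Ifng (0.0020); with library weights Cxcl9 (-0.0031) and Prf1 (-0.033). Without the 3 libraries highest in muscle markers they were Cxcl10 (0.21) and Des (0.025). Without the 3 highest in keratinocyte markers they were Cxcl9 (-0.18), Gzmb (-0.14), Prf1 (-0.21), Cd8a (-0.092), Kdm6b (0.019), Mia3 (0.055), H2-DMb1 (-0.082), H2-Ab1 (-0.094), H2-Aa (-0.084) and Tnfrsf18 (-0.088). When 1 library was left out, changes ran from -0.19 to 0.11 for Cxcl10, -0.11 to 0.29 for Cxcl9, -0.11 to 0.11 for Ifng, -0.12 to 0.16 for Prf1, -0.023 to 0.15 for Cd8a, -0.19 to 0.064 for Kdm6b, -1.56 to 0.046 for Mia3, -0.32 to 0.015 for Cbx2 and -0.058 to 0.97 for Krt1. The cause was not tested. Depth being unknown, values near 1 FPKM are the least certain.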

Other observations

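Immunoglobulin transcripts varied widely within each group. Igkc, the kappa light chain constant region, had 11.8, 2.54, 4.01, 18 and 2.2 FPKM in replicates 1 to 5 of anti-CXCL10 and 19, 67.1, 28.4, 18.5 and 2.02 with GSK343. The heavy chain gene Ighg2c had 1.61, 0.34, 0, 0.109 and 0 FPKM without the drug and 2.84, 20.4, 21.3, 2.28 and 0 with it. Replicate 5 of each group was the lowest for Igkc. B and plasma cell markers had 5 of 8 higher (median 0.54), and the median was between -0.09 and -0.07 when treated replicate 1, 2, 3 or 4 was left out, where 5 of the 8 genes reached the filter. Hemoglobin transcripts, which mark red blood cells, divided the libraries without regard to treatment: Hba-a2 had 1285, 211, 317, 389 and 131 FPKM without GSK343 and 860, 111, 922, 145 and 102 with it.

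In 24 protein-coding genes a library was listed at 0 while another had at least 20 FPKM, and 8 of them overlap another listed gene. Qars, the glutaminyl-tRNA synthetase that every cell needs, was listed at 0 in replicates 1 and 5 of anti-CXCL10 and had 71.4 to 129 FPKM in the other 8 libraries. Eno1b, a near-identical copy of the enolase gene Eno1, was listed at 0 in 1 library without GSK343 and in 4 with it and had 62.5 to 89.4 FPKM elsewhere, while Eno1 had 268 to 367 FPKM in all 10. Gstp2 was listed at 0 in 1 library without the drug and 2 with it, while its paralog Gstp1 ranged from 180 to 249 FPKM.

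The spread between libraries was somewhat smaller with GSK343. The SD on the log2(FPKM + 1) scale was larger without the drug for 8404 genes (61.4%), with medians of 0.207 without and 0.176 with it. Oxidative phosphorylation subunits had 27 of 31 higher (median 0.08) with 0 at an unadjusted p under 0.05.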
